A study of Mus musculus with 18 samples.

Results

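Heat shock proteins and J-domain chaperones were examined in the RPE of *rd1* mice. The set holds the protein-coding genes whose symbols begin with Hsp90, Hspa, Hspb or Dnaja, Dnajb or Dnajc followed by a number, together with *Hspd1*, *Hspe1* and *Hsph1*. These were 71 of the 47729 genes in the count table. Of the 71, 65 had enough counts to be tested. *Dnajb8* and *Dnajc5g* had no count in any library, and *Hspa1l*, *Hspb3*, *Hspb9* and *Dnajc5b* were below the count filter.

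Per the labels, all mice carried the *rd1* mutation in *Pde6b*, which takes away the rods early in life, and were P40 when RNA was taken. The study's methods also name pairs of CD1 mice at P40, and whether any library used here came from CD1 mice was not tested. In each of 9 mice, AAV-Best1-Nrf2, which carries the human *NFE2L2* cDNA, was given to 1 eye mixed with AAV-Best1-GFP. The contralateral eye was given AAV-Best1-GFP only. Per the study's methods, the eye given both viruses thus received a higher total dose of vector, and the added virus had another capsid. Effects of vector dose or capsid cannot be told apart from those of Nrf2 in this design. Both transgenes were driven by the human Best1 promoter, which is used for expression in the RPE. RNA came from the eyecup after the retina had been taken off, so other cells that stayed in the eyecup could add to it. The groups are called Best1-Nrf2 and control, with 9 libraries each.

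Molecular chaperones keep proteins folded and help to refold or discard damaged ones. HSP70 proteins bind exposed stretches of unfolded proteins in a cycle driven by ATP. J-domain proteins bring them their clients and speed ATP hydrolysis, and HSP110 proteins release the nucleotide. HSP90 proteins finish the folding of signaling proteins, small HSPs hold unfolding proteins in solution, and the chaperonins HSP60 and HSP10 fold proteins inside mitochondria. Heat shock factor 1 raises several of these genes under heat, oxidants or tissue injury, whereas *Hspa5*, *Hsp90b1* and *Dnajc3* belong to the unfolded protein response of the endoplasmic reticulum (ER). Nrf2, the factor that was overexpressed, acts through the antioxidant response element. The RPE takes up shed outer segments throughout life, and its load of proteins to fold and degrade is high.

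Upstream sequences of 4 genes are shown with the element searched for in each. The genes are the inducible cytosolic HSP70 (*Hspa1b*), the HSP110 gene that rose here (*Hsph1*), a mitochondrial chaperonin (*Hspe1*) and the ER HSP70 (*Hspa5*). All are RefSeq sequences on GRCm38.p6, written 5′ to 3′ on the strand of the gene. Capitals mark the heat shock element in the first 3 and the ER stress element in *Hspa5*. For *Hsph1* and *Hspa5* only 30 bases around the element are shown, because the gene model of the annotation used here begins upstream of the RefSeq start and already covers that place.
*Hspa1b* (chr17:34959239-34959488, minus strand): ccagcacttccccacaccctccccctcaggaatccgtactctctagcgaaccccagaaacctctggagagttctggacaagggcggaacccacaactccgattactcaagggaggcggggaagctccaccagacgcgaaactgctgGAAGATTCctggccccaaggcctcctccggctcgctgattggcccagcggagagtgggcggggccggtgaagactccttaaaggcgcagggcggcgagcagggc
*Hsph1* (chr5:149636351-149636380, minus strand): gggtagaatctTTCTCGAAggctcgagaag
*Hspe1* (chr1:55087898-55088131, plus strand): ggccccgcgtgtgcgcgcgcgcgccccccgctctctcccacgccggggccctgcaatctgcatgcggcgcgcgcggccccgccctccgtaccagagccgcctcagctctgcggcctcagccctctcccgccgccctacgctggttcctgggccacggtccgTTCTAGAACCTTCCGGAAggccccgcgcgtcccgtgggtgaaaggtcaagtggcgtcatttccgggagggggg
*Hspa5* (chr2:34772019-34772048, plus strand): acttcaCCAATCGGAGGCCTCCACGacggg

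Motifs were searched on both strands in the 250 bases upstream of the RefSeq starts of 57 members and of 16387 protein-coding genes in all. A pair of heat shock units (GAANNTTC, or TTCNNGAA) lay upstream of 14 members (24.6%) and of 13.6% of all genes. These members included *Hspa1a*, *Hspa1b*, *Hspb1*, *Hsph1*, *Dnajb4*, *Hspd1* and *Hspe1*. An element of 3 heat shock units, which overlaps the pair, was found for *Hspe1*, *Hspd1* and *Dnajb6* (5.26% of members and 0.427% of all genes). In *Hspe1* it matched at 2 overlapping places, so the run in capitals holds 4 alternating units. *Hspe1* and *Hspd1* lie head to head, and whether the same site was counted for both was not checked. The ER stress element was found for *Hspa5*, *Hsp90b1* and *Dnajc3* (5.26% and 0.159%), and it contains the CCAAT box, which alone was present for 22 members (38.6% and 39.2%). The antioxidant response element (TGACNNNGC) lay upstream of 8 members, *Hsph1* and *Dnajb1* among them (14.04% and 12.2%). A match is a run of letters and was not tested as a binding site.

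*Nfe2l2* served as the check of the labels. It ranged from 76.7 to 133.8 CPM, the counts scaled to library size (median, 83.0) in control eyes and from 275.2 to 704.0 CPM (median, 456.9) in Best1-Nrf2 eyes, and the groups did not overlap. The log2 fold change was 2.29 (SE 0.21, edgeR adjusted p = 6.21e-05, higher in 9 of 9 mice). Reads of the human cDNA and of the mouse transcript were not told apart. Library totals ran from 18956748 to 49598700 counts.

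The cells in the eyecup also differed between the groups. RPE markers were strong in all libraries, with a mean log2 CPM of 7.97 to 9.69 in control eyes and 8.35 to 9.03 in Best1-Nrf2 eyes. The mean was lower with Best1-Nrf2 in 8 of 9 mice (median, 9.27 against 8.77 log2 CPM), and 7 of the 26 genes were lower. Of 22 photoreceptor markers, 16 were lower and 1 (*Rom1*) was higher. The control eyes had means of 3.30 to 5.40 log2 CPM for these markers and the Best1-Nrf2 eyes means of 0.33 to 3.20, with no overlap. Of 20 macrophage and microglia markers, 12 were higher, and their mean was higher in 9 of 9 mice (2.28 to 3.36 against 2.83 to 4.77 log2 CPM). Genes marking the lens (10 tested), skeletal muscle (14), inner retina (15), endothelium (10), red blood cells (5), melanocytes (5), and smooth muscle and pericytes (10) gave no call in edgeR. Of fibroblast and sclera genes, 2 were higher and 2 lower of 11, and 1 of 10 Müller glia genes was lower, *Rlbp1*, which is also on the RPE list. The counts of marker genes above are from edgeR. DESeq2 called 1 inner retina gene as lower and 1 smooth muscle and pericyte gene as higher. It called 3 Müller glia genes, 2 of them lower. The part of these cells in the results on chaperones was not tested except by the photoreceptor covariate below. In bulk RNA, fewer cells of a type and less RNA per cell cannot be told apart.

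Most of the chaperone genes showed no detectable difference between the eyes. In the paired edgeR test, 3 members were higher with Best1-Nrf2 (*Hsph1*, *Hspb8* and *Dnajb4*) and 1 was lower (*Dnajc22*) at an adjusted p under 0.05. That is 6.15% of the 65 members tested, where 4.25% of all 18958 genes were called, 3.12% as higher and 1.13% as lower, so the share among members was near that of genes at large. At an unadjusted p under 0.05 there were 6 members (9.23%) and 12.8% of all genes. The other 2 were *Dnajc8* and *Dnajc10*. DESeq2 called the same 4 members, where it called 7.8% of all genes. The fold changes were centered close to 0, with 32 members above and 33 below it and a median log2 fold change of -0.002, beside -0.03 over all genes. For 59 of the 65, the log2 fold change was within 0.5 of 0. The values of the groups overlapped for all 65 members, whereas they did not for 1.17% of all genes.

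**Figure D1:**
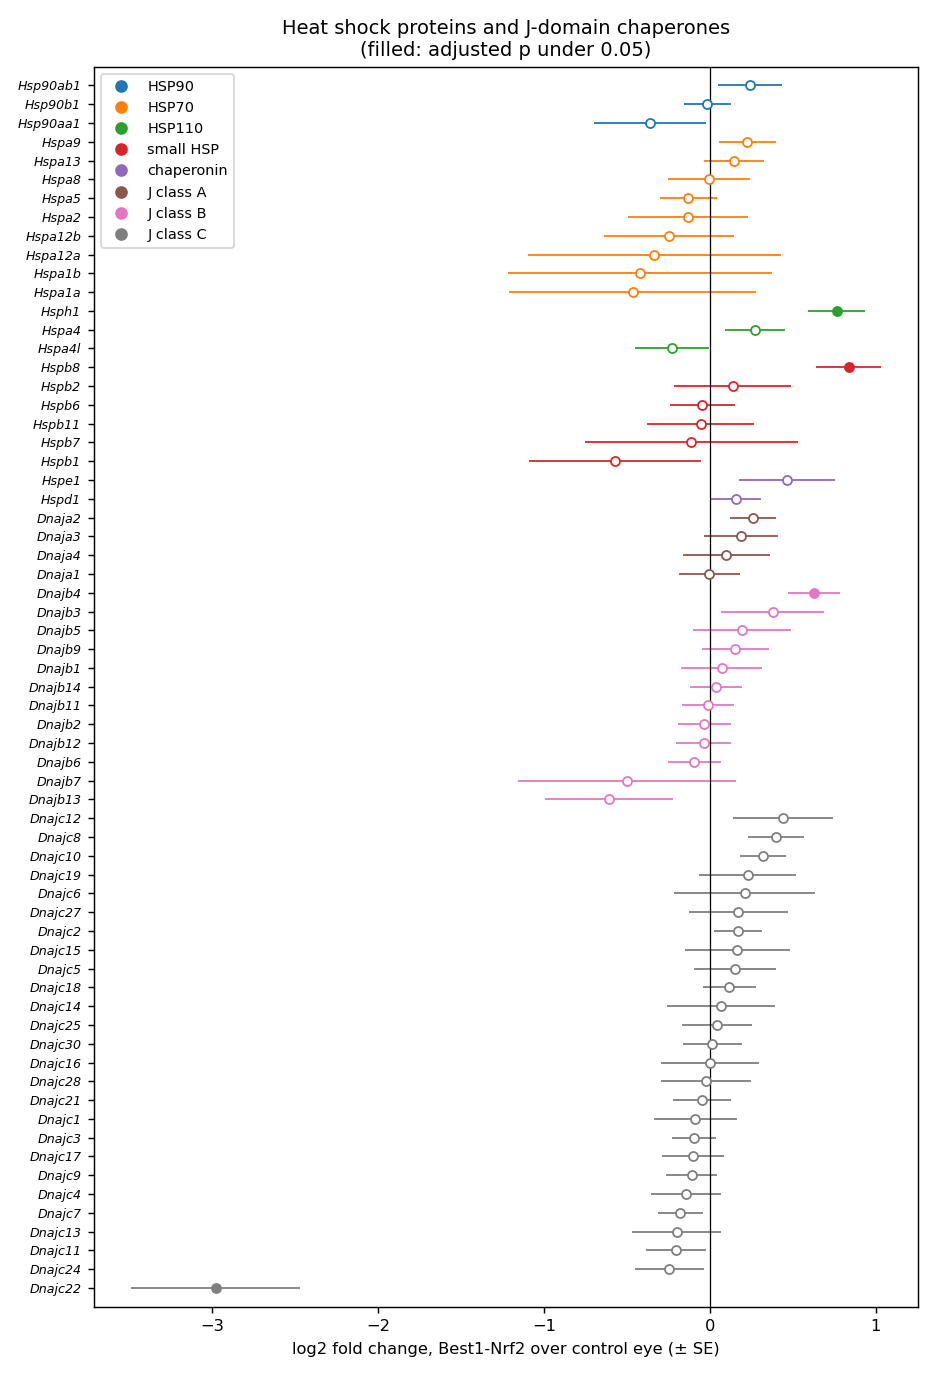
Log2 fold change of Best1-Nrf2 over control eyes for the 65 tested members (x axis; bars, SE; 9 mice), grouped by role in color, with filled points at an adjusted p under 0.05. *Hsph1*, *Hspb8* and *Dnajb4* lie on the right, *Dnajc22* lies at -2.98 on the left, and most other points lie within 0.5 of 0.

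The calls were sensitive to single mice. The number of higher members fell to 0 when mouse 3, 4, 5 or 7 was left out and to 1 without mouse 2 or 9, whereas it was 3 without mouse 6, whose Best1-Nrf2 eye kept a photoreceptor mean of 3.20 log2 CPM and had the highest inner retina mean (6.27). *Dnajc22* was called in all 9 of these fits. Over them, the log2 fold change ran from 0.71 to 0.90 for *Hsph1*, 0.72 to 0.97 for *Hspb8* and 0.57 to 0.73 for *Dnajb4*. Calls over all genes changed too, from 806 to between 540 (without mouse 7) and 1046 (without mouse 6). With the mean of the photoreceptor markers as a covariate, no member and none of the 18958 genes passed, although that covariate itself separated the groups in 9 of 9 mice.

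*Hsph1* encodes HSP110, the inducible nucleotide exchange factor of HSP70. It lies on chromosome 5 (149614287 to 149636376, minus strand, GRCm38) in 19 exons. It ranged from 19.1 to 59.6 CPM (median, 41.3) in control eyes and from 35.4 to 87.9 CPM (median, 65.8) in Best1-Nrf2 eyes. The ranges overlapped, but the Best1-Nrf2 eye was the higher one in 9 of 9 mice. The rise was 1.70-fold (log2 fold change 0.76, SE 0.17, edgeR adjusted p = 0.0245). Both eyes of mouse 8 held the lowest value of their group. The smallest differences were in mice 9 and 1, at 59.6 against 64.5 CPM and 44.6 against 48.7 CPM. The other HSP110 genes were not called. *Hspa4* ranged from 40.5 to 69.1 CPM (median, 55.6) in control and from 29.96 to 84.1 CPM (median, 68.8) in Best1-Nrf2 eyes, with a log2 fold change of 0.27 (95% interval, -0.14 to 0.69). *Hspa4l* ranged from 19.1 to 106.3 CPM (median, 49.1) and from 30.8 to 58.4 CPM (median, 47.0), with a log2 fold change of -0.23 (95% interval, -0.75 to 0.29).

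*Hspb8* encodes a small HSP that works with the co-chaperone Bag3 to direct misfolded proteins to autophagy. It lies on chromosome 5 (116408491 to 116422864, minus strand) in 4 exons. It ranged from 30.6 to 94.5 CPM (median, 72.8) in control and from 72.4 to 183.0 CPM (median, 107.5) in Best1-Nrf2 eyes. It was higher with Best1-Nrf2 in 8 of 9 mice, the exception being mouse 6 (86.9 CPM in the control eye and 72.4 CPM in the Best1-Nrf2 eye). The rise was 1.79-fold (log2 fold change 0.84, SE 0.20, edgeR adjusted p = 0.0303), and it was not called without mouse 1, 3, 4, 5, 7, 8 or 9. In the model without the replicate block for mouse, neither *Hspb8* (edgeR adjusted p = 0.0514) nor *Hsph1* (0.0688) was called. Its partner *Bag3*, which is not a member, ranged from 15.3 to 35.1 CPM (median, 28.02) in control and from 19.4 to 59.7 CPM (median, 40.8) in Best1-Nrf2 eyes. *Bag3* was higher in 8 of 9 mice but did not pass over all genes (log2 fold change 0.60, SE 0.22, edgeR adjusted p = 0.208). Of the 9 fits that each left out a mouse, only the one without mouse 6, where *Bag3* was lower with Best1-Nrf2, called it (0.78, edgeR adjusted p = 0.0177).

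*Dnajb4* encodes a cytosolic J-domain protein close to *Dnajb1*. It lies on chromosome 3 (152178511 to 152210302, minus strand) in 8 exons. It had a narrow range of 35.5 to 50.4 CPM (median, 42.1) in control eyes and ranged from 45.7 to 81.9 CPM (median, 62.2) in Best1-Nrf2 eyes. All 9 mice had the higher value in the Best1-Nrf2 eye, and only the control eye of mouse 8 (50.4 CPM) reached into the Best1-Nrf2 range. The Best1-Nrf2 eyes lay in separate ranges, with mice 3, 4, 5 and 7 between 77.8 and 81.9 CPM and mice 1, 2, 6, 8 and 9 between 45.7 and 62.2 CPM. The rise was 1.55-fold (log2 fold change 0.63, SE 0.16, edgeR adjusted p = 0.0431). It was close to the threshold and was not called with RLE scaling (adjusted p = 0.0508), upper-quartile scaling (0.0705) or no count filter (0.0809).

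*Dnajc22*, a J-domain gene of class C with little known function, was the only member that was lower. It lies on chromosome 15 (99093170 to 99104737, plus strand) in 5 exons. It was a low gene, with 0 to 127 counts per library. In control eyes it ranged from 0 to 2.95 CPM (median, 1.35), and in Best1-Nrf2 eyes from 0 to 0.417 CPM (median, 0.272). It was lower with Best1-Nrf2 in 8 mice, and in mouse 8 both eyes had 0 counts. A count of 0 allows up to 3 counts, or 0.171 CPM in the control and 0.0971 CPM in the Best1-Nrf2 library of mouse 8. The log2 fold change was -2.98 (SE 0.51, edgeR adjusted p = 0.00579). It was not tested where a minimum of 10 counts was asked of each library.

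**Figure D2:**
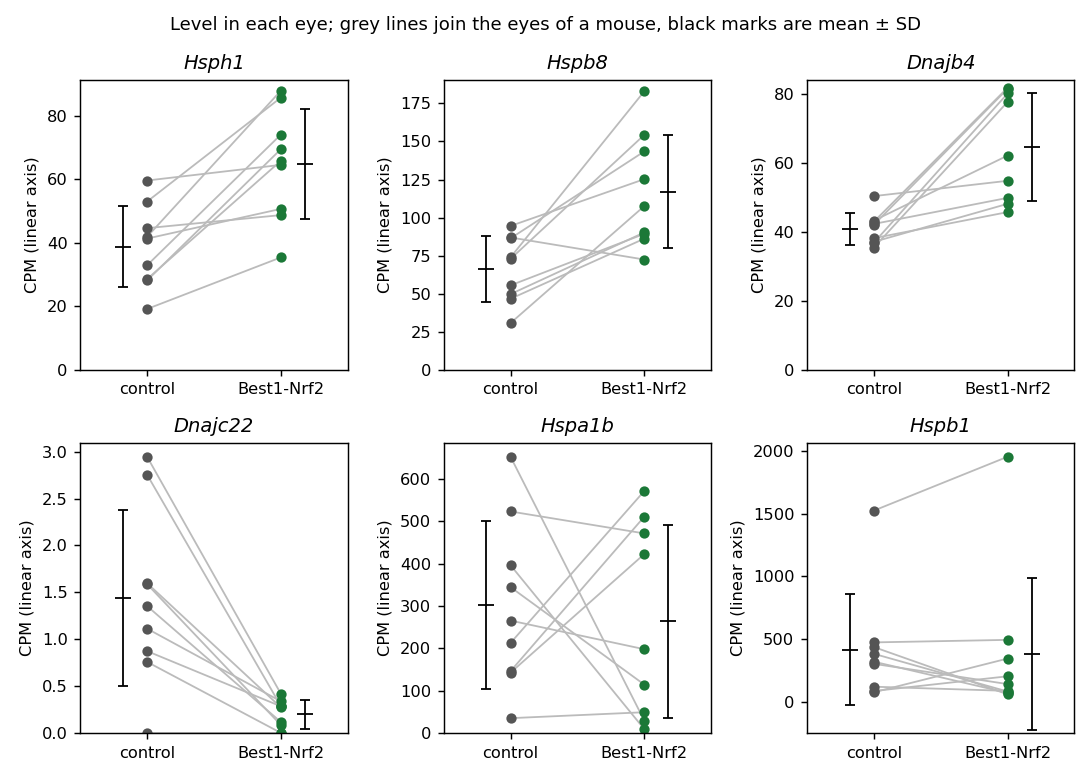
CPM in each of the 9 control and 9 Best1-Nrf2 eyes (linear y axis) for the 4 called members and for *Hspa1b* and *Hspb1*; gray lines join the eyes of a mouse and black marks give mean ± SD. The lines for *Hsph1* and *Dnajb4* go up in 9 of 9 mice, whereas those for *Hspa1b* cross, from 34.9 to 653.2 CPM in control eyes and 9.02 to 572.0 CPM in Best1-Nrf2 eyes.

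Besides *Hsph1*, 5 other members are classic heat-inducible genes, and none of them was called. *Hspa1b* and *Hspa1a*, the stress-inducible HSP70 genes, spanned wide ranges in both groups. *Hspa1b* ranged from 34.9 to 653.2 CPM (median, 265.6) in control and from 9.02 to 572.0 CPM (median, 197.9) in Best1-Nrf2 eyes, which is an 18.7-fold and a 63.4-fold span. It was higher with Best1-Nrf2 in mice 1, 3, 5 and 9 and lower in the other 5. The largest falls were in mouse 4, from 653.2 to 29.3 CPM, and mouse 6, from 396.6 to 9.02 CPM. The log2 fold change of -0.42 had a wide 95% interval of -2.26 to 1.41 (edgeR adjusted p = 0.919), which excluded neither a fall nor a rise within those limits. *Hspa1a* gave nearly the same picture, at 16.2 to 276.3 CPM (median, 111.9) and 5.92 to 219.4 CPM (median, 82.5). The genes share 63.8% of the 31-base words of *Hspa1a*, so their counts were not independent.

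*Hspb1*, which encodes the small HSP known as HSP27, was the member with the highest level per length, at 859 ± 681 TPM, the counts per length scaled to the library (SD, n = 9), in control eyes and 718 ± 857 TPM in Best1-Nrf2 eyes. In CPM it ranged from 76.7 to 1523 (median, 320.2) and from 60.4 to 1952 (median, 141.9), with a log2 fold change of -0.57 (95% interval, -1.76 to 0.63). Both eyes of mouse 8 stood far above the rest, at 1523 and 1952 CPM. In both groups, the eyes with the highest *Hspb1* were those of mice 8 and 5, which also had the highest means of the lens genes, at 5.84 and 5.96 log2 CPM in control eyes and 8.11 and 6.22 log2 CPM in Best1-Nrf2 eyes. A part of the lens in this was not tested. Of the 31-base words of *Hspb1*, 55.4% occur elsewhere, mostly in a pseudogene. The percentage was also large for *Hspd1* (53.1%), *Hsp90aa1* (51.5%), *Hspa8* (44.8%) and *Hspe1* (30.5%), whose counts have the same limit.

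*Dnajb1*, the inducible partner of HSP70, ranged from 34.4 to 110.9 CPM (median, 79.4) in control and from 36.0 to 116.6 CPM (median, 89.4) in Best1-Nrf2 eyes, with a log2 fold change of 0.07 (95% interval, -0.49 to 0.64). *Hsp90aa1*, the inducible cytosolic HSP90, ranged from 524.9 to 2798 CPM (median, 890.2) and from 412.5 to 3071 CPM (median, 576.9), with a log2 fold change of -0.36 (95% interval, -1.14 to 0.42). Thus 1 of the 6 heat-inducible genes was higher, and the median of their log2 fold changes was -0.39. With the share of counts held by short genes as a covariate, *Hsp90aa1* was called as lower (log2 fold change -0.78, edgeR adjusted p = 0.0257). With the photoreceptor covariate its log2 fold change was 1.31, without a call.

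The levels of several heat-inducible genes followed those of immediate-early genes such as *Fos*, *Jun* and *Egr1*, which are switched on within minutes by handling of tissue, injury or stimulation. The mean of 16 immediate-early genes ranged from 3.06 to 4.63 log2 CPM in control and from 2.63 to 4.70 log2 CPM in Best1-Nrf2 eyes, and 1 of them was lower with Best1-Nrf2 (*Egr1*, log2 fold change -1.24, SE 0.28, edgeR adjusted p = 0.0269). *Egr1* was not called without mouse 1, 2, 3, 4, 7 or 9, and DESeq2 called 5 of the 16, with *Fosl1* and *Atf3* higher and *Egr1*, *Egr2* and *Nr4a1* lower. The relation was computed for the 6 genes in each group, 12 relations in all. Over the 9 control eyes, Pearson's r was 0.92 for *Hspa1b* (exact permutation p = 0.00178, adjusted p = 0.00808) and Spearman's rho was 0.85 (p = 0.00607, adjusted p = 0.0243). Over the 9 Best1-Nrf2 eyes, r was 0.87 (exact permutation p = 0.00367, adjusted p = 0.00882), but rho, at 0.63, did not pass (p = 0.0760, adjusted p = 0.114).

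For *Dnajb1*, r was 0.92 in control (exact permutation p = 0.00136, adjusted p = 0.00808) and 0.84 in Best1-Nrf2 eyes (p = 0.00507, adjusted p = 0.0101), with rho of 0.87 (p = 0.00451, adjusted p = 0.0243) and 0.67 (p = 0.0589, adjusted p = 0.114). For *Hspa1a*, r was 0.91 and 0.89, with exact permutation p of 0.00202 and 0.00334 (adjusted p, 0.00808 and 0.00882), and rho was 0.85 and 0.63, with the same exact permutation p as for *Hspa1b*. Without the 2 eyes farthest from the median, r was between 0.71 and 0.72 for these 3 genes in control eyes and between 0.86 and 0.88 in Best1-Nrf2 eyes, so the control relation was weaker without those 2 eyes. *Hsph1* showed no such relation, with r of 0.10 in control (exact permutation p = 0.790) and -0.23 in Best1-Nrf2 eyes (p = 0.554) and rho of 0.05 and -0.13 (p = 0.912 and 0.744). For *Hspb1*, r was 0.58 (exact permutation p = 0.105, adjusted p = 0.126) and 0.70 (p = 0.0315, adjusted p = 0.0472), and rho was 0.43 and 0.67 (p = 0.250 and 0.0589, adjusted p = 0.333 and 0.114). *Hsp90aa1* had r of -0.66 (exact permutation p = 0.0530, adjusted p = 0.0707) and -0.78 (p = 0.0120, adjusted p = 0.0205), which came to -0.42 and -0.25 without the 2 farthest eyes, and its rho of -0.40 and -0.63 did not pass (exact permutation p = 0.291 and 0.0760). Within mice, the difference between eyes had the same sign as that of the immediate-early genes in 7 of 9 mice for *Hspa1a*, *Hspa1b*, *Hspb1* and *Dnajb1*, in 4 for *Hsph1* and in 2 for *Hsp90aa1*. The lowest immediate-early means lay in eyes with a high share of counts in short genes, described below. These were mice 3 and 5 in control (3.06 and 3.80 log2 CPM) and mice 3 and 6 in Best1-Nrf2 eyes (2.63 and 2.94). Another such Best1-Nrf2 eye, of mouse 8, was at 4.56 log2 CPM. A part of that share in these relations was not tested.

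**Figure D3:**
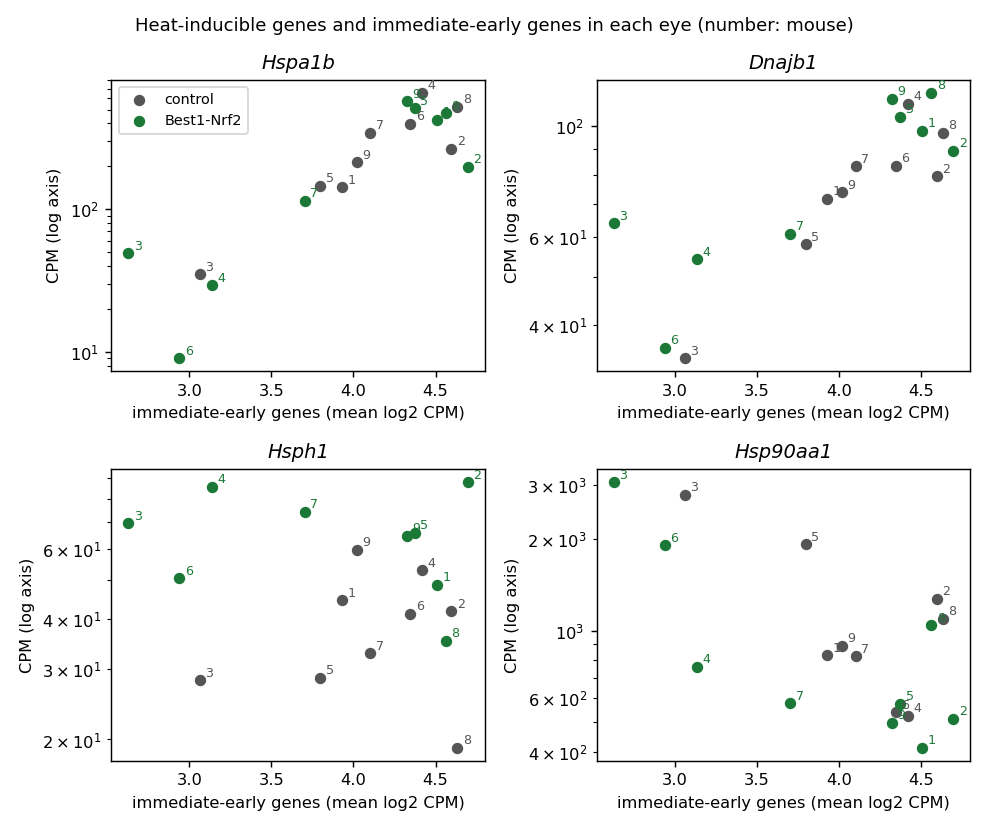
CPM (log y axis) of *Hspa1b*, *Dnajb1*, *Hsph1* and *Hsp90aa1* against the mean log2 CPM of immediate-early genes (x axis) in 9 control (gray) and 9 Best1-Nrf2 (green) eyes, numbered by mouse. *Hspa1b* and *Dnajb1* rise from left to right in both groups (r, 0.84 to 0.92), and *Hsph1* does not (r, 0.10 and -0.23).

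The constitutive cytosolic chaperones had high levels in both groups and no call. *Hsp90ab1*, the constitutive HSP90, was at 400 ± 48.6 TPM (SD, n = 9) in control eyes by level per length, and in CPM it ranged from 340.8 to 776.6 (median, 517.4) against 384.5 to 961.6 (median, 569.1). Its log2 fold change was 0.24 (95% interval, -0.20 to 0.69). *Hspa8*, the constitutive HSP70, ranged from 68.7 to 515.7 CPM (median, 329.5) in control and from 103.1 to 475.8 CPM (median, 311.5) in Best1-Nrf2 eyes, with a log2 fold change of -0.004 (95% interval, -0.57 to 0.56). *Dnaja2*, the J protein of class A with the highest level per length, was higher in 8 of 9 mice but did not pass, at 86.7 to 146.7 CPM (median, 127.1) against 88.8 to 195.2 CPM (median, 154.6) and a log2 fold change of 0.26 (SE 0.14, edgeR adjusted p = 0.498). *Hspb6*, the small HSP known as HSP20, ranged from 53.0 to 182.0 CPM (median, 108.9) against 71.0 to 118.9 CPM (median, 95.8), with a log2 fold change of -0.04 (95% interval, -0.50 to 0.41).

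None of the 12 ER members was called, and their log2 fold changes ran from -0.13 to 0.32. *Hsp90b1*, the ER HSP90 known as GRP94, ranged from 339.1 to 507.6 CPM (median, 457.4) in control and from 382.7 to 539.8 CPM (median, 413.5) in Best1-Nrf2 eyes, with a log2 fold change of -0.01 (95% interval, -0.34 to 0.31). *Hspa5*, the ER HSP70 known as BiP, ranged from 391.2 to 810.7 CPM (median, 662.5) against 453.5 to 732.6 CPM (median, 558.4), with a log2 fold change of -0.13 (95% interval, -0.52 to 0.26). Their J proteins were not called either. The log2 fold change was 0.15 for *Dnajb9* (95% interval, -0.30 to 0.62), -0.01 for *Dnajb11* (-0.37 to 0.35) and -0.09 for *Dnajc3* (-0.41 to 0.22). *Dnajc10*, an ER disulfide reductase, was at 43.2 to 128.8 CPM (median, 66.0) against 50.4 to 153.7 CPM (median, 95.2) and was higher in 8 of 9 mice, but it did not pass over all genes (log2 fold change 0.32, SE 0.14, edgeR adjusted p = 0.342).

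The wider ER folding and unfolded protein response list, of 31 genes, had no call with edgeR or with DESeq2, and 1 at an unadjusted p under 0.05, *Trib3*. *Trib3*, a target of the stress factors Atf4 and Chop, ranged from 4.43 to 14.8 CPM (median, 8.12) in control and from 1.59 to 6.35 CPM (median, 4.81) in Best1-Nrf2 eyes (log2 fold change -0.88, SE 0.35, edgeR adjusted p = 0.277). The list had a median log2 fold change of 0.10, with 18 genes above and 13 below 0. The co-chaperone and heat shock factor list, 43 genes of the cytosol, ER and mitochondria that include *Sil1* and *Hyou1* of the ER list, also had no call with either tool. At an unadjusted p under 0.05 there were 2 of them, *Bag3* and *Bag1*. The median log2 fold change of that list was 0.09, with 31 genes above and 12 below 0. *Hsf1*, the main heat shock factor, had means of 24.6 ± 9.63 and 24.9 ± 9.05 CPM in the control and Best1-Nrf2 groups (SD, n = 9; log2 fold change 0.04, SE 0.21).

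None of the 8 mitochondrial members was called. Of these, 7 had a positive log2 fold change, with a median of 0.18, beside 8911 of all 18958 genes tested, with a median of -0.025. *Hspa9*, the HSP70 of the matrix, ranged from 101.2 to 233.2 CPM (median, 170.5) in control and from 115.4 to 269.3 CPM (median, 198.3) in Best1-Nrf2 eyes (log2 fold change 0.23, 95% interval -0.17 to 0.62). *Hspd1*, which encodes HSP60, ranged from 86.6 to 149.3 CPM (median, 116.2) against 93.5 to 229.8 CPM (median, 132.1), with a log2 fold change of 0.16 (95% interval, -0.19 to 0.51). *Hspe1*, which encodes its lid HSP10, spanned a much wider range, from 41.0 to 376.9 CPM (median, 76.4) against 55.1 to 523.0 CPM (median, 103.8), and its log2 fold change was 0.46 (95% interval, -0.20 to 1.13), or 0.043 with the share of counts held by short genes as a covariate. The pair lies head to head on chromosome 1 with overlapping gene models. The element of 3 heat shock units named above was found upstream of both, and whether it is the same site was not checked.

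The spread between eyes ranged widely among the members. Over the 18 eyes, the SD of log2 CPM was 1.75 for *Hspa1b*, 1.63 for *Hspa1a*, 1.49 for *Hspb1* and 1.08 for *Hspe1*. At the other end it was 0.17 for *Hsp90b1*, 0.19 for *Dnajc7* and 0.22 for *Dnajc3*. Of 11659 genes with a control mean of at least 5 CPM, 0.223% had a smaller SD than *Hsp90b1* and 96.7% had a smaller SD than *Hspa1b*. The median was 0.38 over the 12 ER members, 0.60 over 26 cytosolic members and 0.59 over 8 mitochondrial members of that level, beside 0.60 over all such genes. These are descriptions of the members and were not tested.

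**Figure D4:**
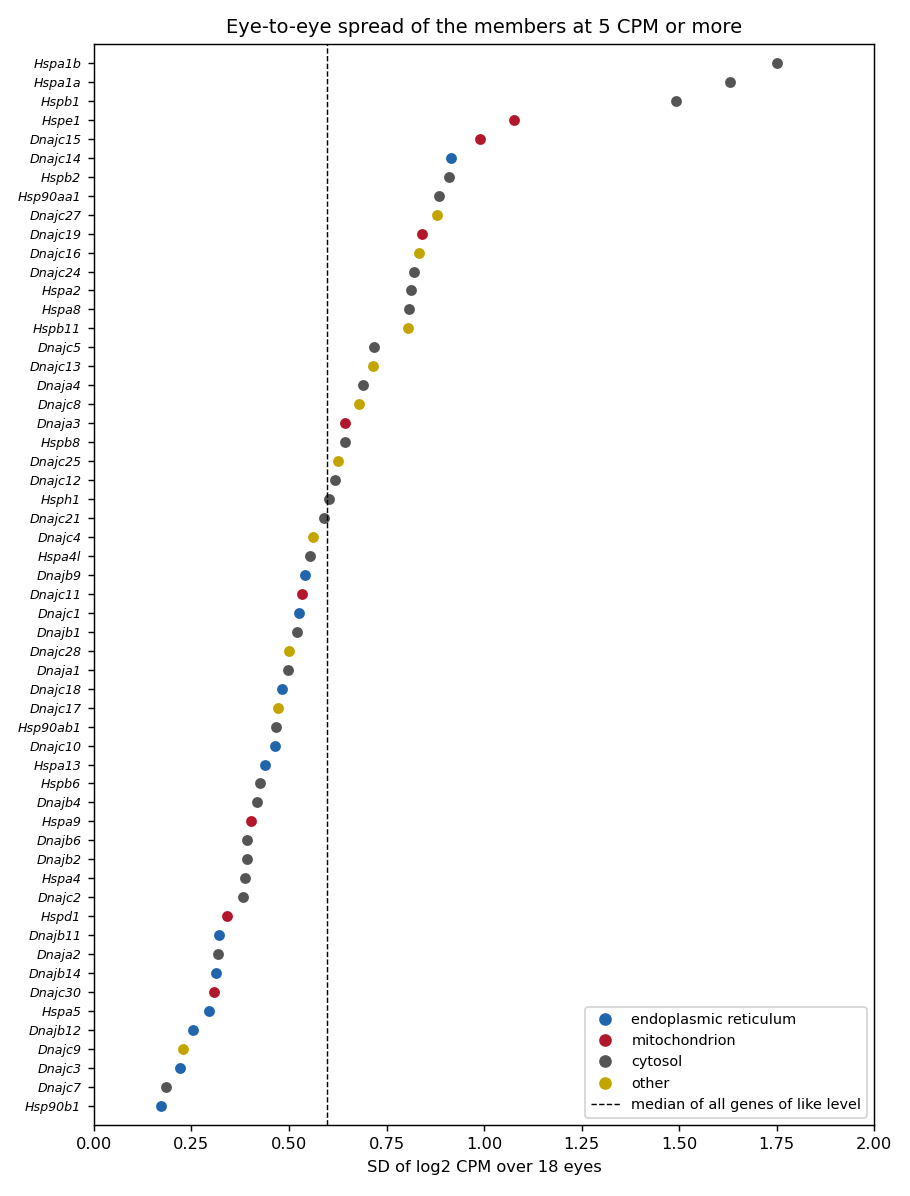
SD of log2 CPM over the 18 eyes (x axis) for the 56 members with a control mean of at least 5 CPM, colored by compartment, with the median of all genes of like level as a dashed line. *Hsp90b1* (0.17) is the lowest and *Hspa1b* (1.75) the highest, and 11 of the 12 ER members lie left of the line.

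The levels of several members moved with the share of counts that short genes held in a library. That share, taken over 3577 protein-coding genes with under 1500 exonic bases, members left out, was 6.61 to 12.2% in 7 control eyes and 19.1 and 21.6% in those of mice 5 and 3. It was 7.68 to 12.4% in 6 Best1-Nrf2 eyes and 20.5 to 23.3% in those of mice 3, 6 and 8. The mitochondrial share of counts separated the same eyes, at 1.54 to 2.79% in the low-share and 4.62 and 4.86% in the high-share control eyes, and at 1.66 to 3.17% and 3.55 to 7.38% in Best1-Nrf2 eyes, and its part in the levels was not tested. The short-gene measure was chosen after the values had been seen. Because the eyes fell into these separate sets, levels are compared between the sets by their ranges. *Hspe1* was at 41.0 to 108.8 CPM in the low-share and 222.4 to 376.9 CPM in the high-share control eyes, and at 55.1 to 108.2 CPM and 237.0 to 523.0 CPM in the Best1-Nrf2 eyes. *Hsp90aa1* (524.9 to 1272 against 1921 to 2798 CPM in control eyes, and 412.5 to 759.5 against 1040 to 3071 CPM in Best1-Nrf2 eyes) and *Hsp90ab1* (340.8 to 655.0 against 718.4 to 776.6 CPM, and 384.5 to 581.2 against 832.8 to 961.6 CPM) also did not overlap between the sets in either group. *Hsp90b1* did, at 339.1 to 507.6 against 457.4 to 469.6 CPM in control eyes and 382.7 to 512.3 against 389.7 to 539.8 CPM in Best1-Nrf2 eyes. Other members were lower in the high-share eyes. In Best1-Nrf2 eyes this was so without overlap for *Hspa8* (285.2 to 475.8 against 103.1 to 214.0 CPM), *Hspa9* (188.7 to 269.3 against 115.4 to 156.0 CPM) and *Hspa4* (68.6 to 84.1 against 29.96 to 60.7 CPM), whereas the sets overlapped for these genes in control eyes. In control eyes it was so for *Dnajb1* (71.7 to 110.9 against 34.4 to 58.1 CPM), which overlapped in Best1-Nrf2 eyes.

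Within the low-share eyes, relations with the share were computed for 24 named members in each group, 48 in all. For *Hsp90ab1*, Pearson's r was 0.97 over 7 control eyes (exact permutation p = 0.00218, adjusted p = 0.0262) and 0.96 over 6 Best1-Nrf2 eyes (exact permutation p = 0.00556, adjusted p = 0.0369). For *Hspe1* it was 0.91 (exact permutation p = 0.00615, adjusted p = 0.0369) and 0.98 (p = 0.00556, adjusted p = 0.0369). For *Dnajc8*, a splicing-related J protein, it was 0.93 (exact permutation p = 0.00139, adjusted p = 0.0262) and 0.95 (p = 0.00694, adjusted p = 0.0370). Without the 2 farthest eyes these 6 values were between 0.72 and 0.95. Of the 48 relations, 11 passed by r, and 2 of these were negative, in control eyes, for *Dnajb9* (r = -0.90, exact permutation p = 0.00179, adjusted p = 0.0262) and *Hspa4* (r = -0.87, exact permutation p = 0.00417, adjusted p = 0.0369). Some members had opposite signs in the control and Best1-Nrf2 eyes, with r of -0.51 and 0.95 for *Hspa5*, -0.42 and 0.94 for *Dnajb11*, -0.67 and 0.88 for *Hspa8* and -0.41 and 0.87 for *Hsp90b1*. The difference in r between the groups was not tested. For *Hsp90ab1*, *Hspe1* and *Dnajc8*, Spearman's rho was between 0.86 and 0.94, with exact permutation p of 0.0123 to 0.0333, and none of the 48 passed adjustment by rho (smallest adjusted p, 0.0667). *Hspa1b* had r of 0.29 (exact permutation p = 0.521) and -0.55 (p = 0.261). A paired edgeR fit with the share as a covariate called 8.17% of all genes, more than without it, and 5 of 65 members (7.69%), a share near that of genes at large. These were *Hsph1*, *Hspb8*, *Dnajb4* and *Dnajc22*, and *Hsp90aa1*, which was lower with Best1-Nrf2 (log2 fold change -0.78, edgeR adjusted p = 0.0257). In this fit the log2 fold change of *Hspe1* went from 0.46 to 0.043 and that of *Hsp90ab1* from 0.24 to 0.024.

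**Figure D5:**
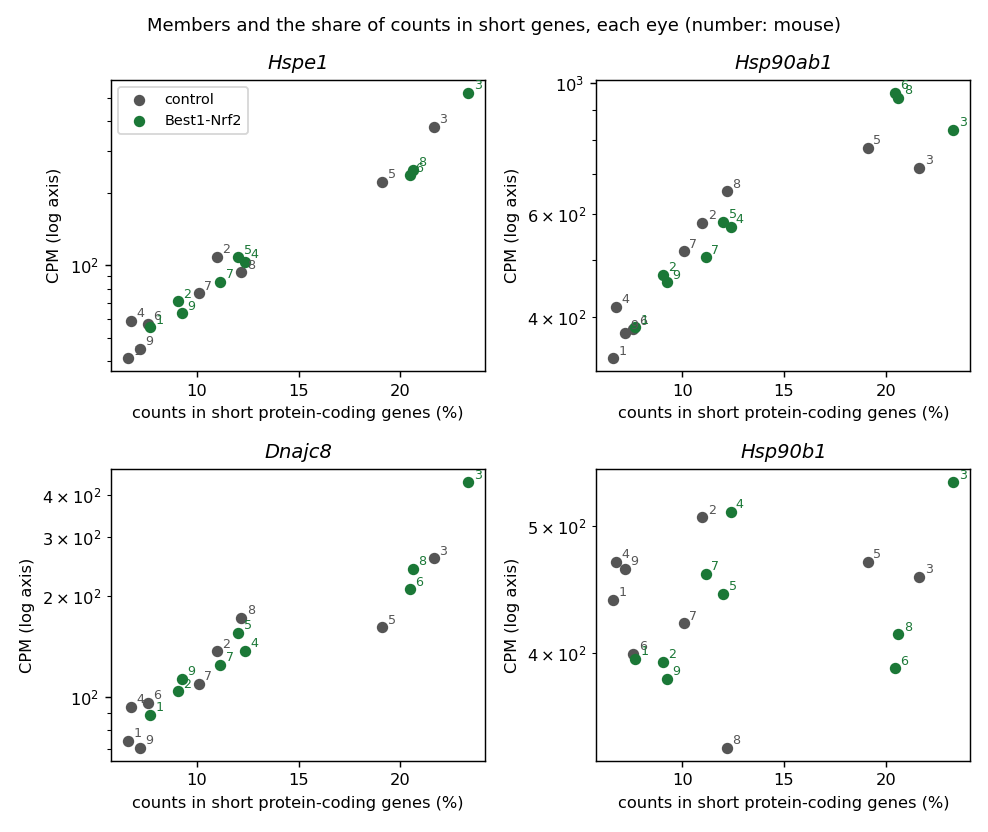
CPM (log y axis) of *Hspe1*, *Hsp90ab1*, *Dnajc8* and *Hsp90b1* against the percentage of counts in short protein-coding genes (x axis) in 9 control (gray) and 9 Best1-Nrf2 (green) eyes, numbered by mouse. The first 3 genes climb with the share in both groups, *Hspe1* from 41.0 to 523.0 CPM, and *Hsp90b1* stays between 339.1 and 539.8 CPM.

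Among the remaining J proteins, 11 of 12 tested class B and 25 of 26 tested class C genes had no call, and the 4 class A genes had none. *Dnajc8*, the class C gene with the highest level per length, ranged from 70.9 to 259.3 CPM (median, 109.5) against 88.7 to 436.5 CPM (median, 137.6) and was higher in 7 of 9 mice without passing over all genes (log2 fold change 0.40, SE 0.17, edgeR adjusted p = 0.333). In Best1-Nrf2 eyes, *Hspa12a* and *Dnajc6*, which have known ties to neurons, were highest where inner retina genes were highest. *Hspa12a*, a distant HSP70 relative, was at 25.2 and 23.6 CPM in the Best1-Nrf2 eyes of mice 2 and 6 and between 0.194 and 4.29 CPM in the others, and *Dnajc6*, the neuronal auxilin, was at 16.1 and 13.7 CPM in the same eyes and between 1.62 and 5.48 CPM in the others. The mean of the inner retina genes was 5.30 and 6.27 log2 CPM in these eyes and 1.57 to 3.41 log2 CPM in the other 7. In control eyes both genes were highest in mouse 1 (16.9 and 9.18 CPM), where the inner retina mean was the lowest, at 2.42 log2 CPM. *Dnajc5* was at 133.4 CPM in the Best1-Nrf2 eye of mouse 2 but at 43.5 CPM in that of mouse 6. It was higher in the Best1-Nrf2 eyes of mice 1 and 9 (120.0 and 114.9 CPM) than in that of mouse 6. *Hspb3*, a muscle small HSP below the count filter, had its highest count, 52, in the Best1-Nrf2 eye of mouse 3, where the skeletal muscle mean was highest, at 7.29 log2 CPM.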

How the data were processed

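RNA of the RPE from both eyes of 9 *rd1* mice was sequenced after amplification of poly(A) RNA with a low-input kit. No molecular identifiers are described, so count-based precision covers counting error only. Sequencing took more than 1 run, and no label assigns libraries to runs. The authors aligned reads to mm10 with STAR and counted them with featureCounts, and also ran Salmon (0.8.1, per the submitters' notes), tximport and DESeq2. Per Ensembl gene, the deposited values are expected counts in whole numbers without scaling. The unit was inferred because near-identical genes had equal values, and which tool made the table is not given in the sources used here. The study's methods name fewer *rd1* animals at this age than the labels, which give 9, and also name CD1 animals of this age. Both kinds of pair together number as many as the pairs used here, so some could be CD1. The labels call all samples *rd1* and were followed.

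R 4.3.3 was used. After filterByExpr and TMM scaling, genes were tested in edgeR 4.0.16 (glmQLFit and glmQLFTest) with mouse as a block. P values were adjusted over all 18958 genes by the Benjamini-Hochberg method (threshold, 0.05). The standard error came from the F statistic, and the 95% interval from it with the residual degrees of freedom of the paired design. Log2 CPM used a prior count of 2, and TPM used the exonic length in GENCODE release 21 on GRCm38, which annotated 47310 genes. The labels number the animals, and these numbers paired the eyes. After removal of group means the eyes of a mouse had a median correlation of -0.00095 (range, -0.37 to 0.64) over all genes. Relations across eyes used 2-sided exact permutation tests. Named in the text are *Nfe2l2*, the called members, the 6 heat-inducible genes, 14 main constitutive or organelle chaperones, and the member of each role with the highest level per length. *Dnajc10*, *Hspa12a*, *Dnajc5*, *Dnajc6*, *Dnajc7*, *Bag3*, *Bag1*, *Trib3*, *Hsf1*, the immediate-early genes and the list genes named under single settings were named, and a value of *Hspb3* was given, after their values were seen. The members and gene lists were chosen with earlier results of these data known. Methods were tested on simulated data. Alternatives were a model with no replicate block, RLE or upper-quartile scaling, DESeq2 1.42.0, other count filters, a threshold of 0.1, covariates and leaving out each mouse. The covariates for immediate-early and short genes were added after the data were seen. No library was left out.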

Additional observations from a re-analysis of the deposited data

Results flagged for a closer look

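Single eyes that stood apart were sought among the named members. In 48 sets of 9 eyes (24 members in each group), 3 had a lowest eye whose gap to the next was larger than Dixon's 95% limit allows, where about 2.4 are expected by chance. *Dnajc22* was lowest in the control eye of mouse 8, at -4.23 log2 CPM beside -0.30 in the next eye. That library had 0 counts of the gene and the smallest total (18956748). *Dnajc3* was lowest in the Best1-Nrf2 eye of mouse 6, at 6.71 log2 CPM beside 7.21. *Hspa4* was lowest in the same eye, at 4.91 log2 CPM beside 5.76. This eye had the highest photoreceptor (3.20 log2 CPM) and inner retina (6.27 log2 CPM) means of its group and 20.5% of its counts in short genes, and their part in these values was not tested.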

How the results depend on the processing

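The mice were paired by the animal numbers in the labels. Without the replicate block, the number of higher members fell from 3 to 1 (*Dnajb4*), and it was 0 with the photoreceptor covariate and 0 to 3 when each mouse was left out. Lower members numbered 0 with at least 10 counts in every library, because *Dnajc22* was not tested there, 0 with the photoreceptor covariate, and 2 with the short-gene covariate, which added *Hsp90aa1*. The cause was not tested unless stated. With RLE or upper-quartile scaling, no count filter, or the immediate-early covariate, *Dnajb4* was not called and 2 higher members were left. For co-chaperones, higher genes numbered 1 with the immediate-early covariate (*Bag3*, 0.75), 2 with the short-gene covariate (*Bag3*, 0.88, and *Fkbp5*, 0.86, on the log2 scale), and 0 to 1 when each mouse was left out. The short-gene covariate raised the calls over all genes from 806 to 1548, and with it 3 ER folding genes were higher (*P4hb*, *Edem1* and *Ero1l*) and 1 was lower (*Ddit3*). The median log2 fold change of the members was 0.29 with the photoreceptor covariate, under which none of 18958 genes was called, and -0.008 to 0.11 over the fits that each left out a mouse.

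The 4 called members kept their direction under every alternative that tested them, although *Hsph1* (adjusted p, 0.0173 to 0.0852), *Hspb8* (0.00507 to 0.0947) and *Dnajb4* (0.0370 to 0.140) were not called in some fits that left out a mouse, whereas *Dnajc22* (0.00359 to 0.0232) was in all of them. With the photoreceptor covariate the log2 fold change was 0.72 for *Hsph1* (edgeR adjusted p = 0.449), 0.41 for *Hspb8* (0.720), 0.53 for *Dnajb4* (0.547) and -4.67 for *Dnajc22* (0.258). It was -4.61 for *Hspa1b*, -4.01 for *Hspa1a*, -2.44 for *Hspb1*, 1.71 for *Hspe1* and 1.00 for *Hsp90ab1*, which were not called. With the immediate-early covariate it was -0.010 for *Hspa1b*, -0.039 for *Hspa1a* and -0.14 for *Hspb1*, also not called. Members that were not called changed sign in some fits. Under the photoreceptor covariate the log2 fold change was -0.99 for *Dnajb1*, 1.31 for *Hsp90aa1*, 0.39 for *Hspa8*, 0.16 for *Hsp90b1*, -0.15 for *Hspa9*, -0.35 for *Dnajb9*, 0.27 for *Dnajb11*, -0.47 for *Hspa4*, 0.88 for *Hspa4l* and 0.70 for *Hspb6*. Under the short-gene covariate it was 0.026 for *Hspa1a*, 0.082 for *Hspa1b* and 0.017 for *Hspa8*. Under the immediate-early covariate it was 0.030 for *Hspa8*, and with no count filter it was 0.017 for *Hspa8*, 0.0091 for *Hsp90b1* and 0.011 for *Dnajb11*. Leaving out each mouse gave -0.78 to 0.029 for *Hspa1b*, -0.027 to 0.23 for *Dnajb1*, -0.19 to 0.11 for *Hspa8*, -0.048 to 0.053 for *Hsp90b1*, -0.10 to 0.088 for *Dnajb11* and -0.13 to 0.11 for *Hspb6*. Over the 24 named members, 390 alternative values kept direction and side of the threshold, 28 kept direction but lost the call, 1 gained it and 36 changed sign. The values at the threshold of 0.1 repeat the main fit. A member that was not called counts as kept for any size of change in the same direction, such as -4.61 for *Hspa1b*. Genes with few counts, such as *Dnajc22*, are limited by depth, and the run of each library was not given, so it could not be used as a term.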
